A study of Mus musculus with 6 samples.

Results

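The genes described here are 10 regulators of G protein signalling (RGS), Rgs2, Rgs4, Rgs6, Rgs7, Rgs8, Rgs9, Rgs10, Rgs12, Rgs14 and Rgs17, chosen by name as brakes on signalling through the inhibitory G proteins Gi and Go. They are 10 of the 47729 genes and carry 82 of the 115220 transcripts in the table. RGS proteins speed up the hydrolysis of GTP by the α subunit of a G protein and so shorten the signal of the receptor that activated it. The D2 dopamine receptor is coupled to Gi and Go, and so are the GABA-B, muscarinic M2 and M4, opioid, cannabinoid CB1 and somatostatin receptors of cortical neurons. The genes fall into families by sequence and partners: Rgs2, Rgs4 and Rgs8 are small R4 proteins, Rgs6, Rgs7 and Rgs9 are R7 proteins that pair with the β subunit Gnb5, Rgs10, Rgs12 and Rgs14 are R12 proteins, and Rgs17 is an RZ protein that also acts on Gz.

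Ribosome-associated RNA was sequenced in 3 Ctrl and 3 Gsk3sKO libraries from the medial prefrontal cortex (mPFC) of adult male C57BL/6 mice. All mice carried a D2Cre transgene on a bacterial artificial chromosome, a Cre-dependent Flag-Cas9 at Rosa26 and the Cre-dependent RiboTag allele, which puts a hemagglutinin tag on the ribosomal protein Rpl22. Ctrl mice received AAV GFP and Gsk3sKO mice AAV Gsk3sgRNA/GFP in the mPFC, and the tissue was dissected 3 weeks later. Cas9 was thus present in both groups, and Cas9 and tag were limited to cells in which the Drd2 transgene drives Cre, whether or not the virus reached them. The labels do not say whether a library is 1 mouse or a pool, so a p-value here covers the scatter of these libraries, which may be technical. The comparison asks which ribosome-associated RNAs differ when the kinase GSK3β is removed from these neurons. Only the Gsk3sKO virus carried the guide against Gsk3b, so loss of GSK3β cannot be told apart from other effects of the guide.

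The targeted gene Gsk3b had gene totals of 35.6, 53.8 and 56.5 FPKM in Ctrl and 36.9, 37.0 and 33.6 FPKM in Gsk3sKO, and Ctrl replicate 1 lay within the Gsk3sKO range (log2 fold change -0.40, limma adjusted p = 0.773). FPKM is a fragment number relative to transcript length and to the mapped total of its library, and a gene total is the sum over a gene's transcripts. The main Gsk3b transcript, ENSMUST00000023507, had 33.5, 34.7 and 36.2 FPKM in Ctrl and 24.8, 21.6 and 21.2 FPKM in Gsk3sKO, without overlap. Its log2 fold change was -0.61 ± 0.14 SE (unadjusted limma p of 0.00448, adjusted p = 0.619). limma called it at an unadjusted p under 0.05, the rule for calls used here. Of all transcripts tested, 11.2% were without overlap and 5.56% were called. The other tested Gsk3b transcript, ENSMUST00000114750, had overlapping groups and a positive log2 fold change of 0.42 (limma adjusted p = 0.949). It had 1.85 FPKM in Ctrl replicate 1 and at least 11.9 FPKM in every other library. Drd2, the defining gene of the tagged cells, ranged from 1.58 FPKM in Ctrl replicate 1 to 14.1 FPKM in Ctrl replicate 3. The 4 markers of neurons summed to 1836 to 1923 FPKM in Ctrl and 1737 to 1993 FPKM in Gsk3sKO, of which Snap25 alone gave 991 to 1134 FPKM. In other marker lists limma called 1 of 4 excitatory neuron genes (Tbr1), 2 of 5 oligodendrocyte genes (Mog and Cldn11) and 2 of 5 microglia genes. All were lower in Gsk3sKO, and none of the remaining marker genes was called. Over all gene totals tested 6.56% were called. In immunoprecipitates of dissected tissue, fewer cells of a type and less RNA per cell cannot be told apart. How far RNA of untagged cells contributed to these values was not tested.

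All 10 RGS genes were detected in each of the 6 libraries, and all passed the filter at a mean of 1 FPKM. The gene totals of 9 of them had 95% intervals of the difference that lay within 2-fold both ways, and none of the 10 was called. limma gave 0 of 10 at an unadjusted p under 0.05, against 844 of 12874 gene totals tested (6.56%). A linear model without moderation called 1 of the 10, Rgs4, against 695 of the 12874. The smallest limma p was 0.172, for Rgs10, and the adjusted p-values ran from 0.824 to 0.987. Log2 fold changes were positive for 5 and negative for 5 genes, with a median of -0.02, and the median over all gene totals was -0.06. The 2 groups did not overlap for 1 of the 10, Rgs4, and for 12% of all gene totals tested. For all genes the calls were 669 lower and 175 higher in Gsk3sKO, and after median ratio scaling 503 lower and 306 higher.

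**Figure D1:**
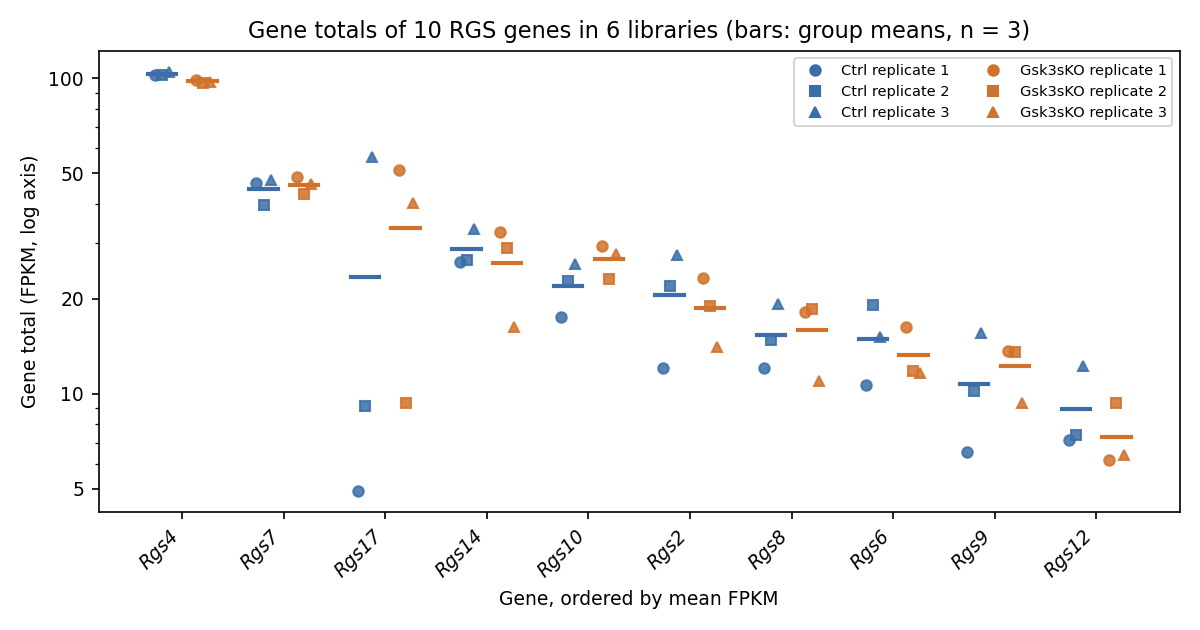
Gene total in FPKM (log axis) of each RGS gene in the 3 Ctrl (blue) and 3 Gsk3sKO (orange) libraries, with a bar at each group mean. Rgs4 lies between 96.9 and 105 FPKM in all libraries, and Rgs17 runs from 4.91 to 56.2 FPKM.

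**Figure D2:**
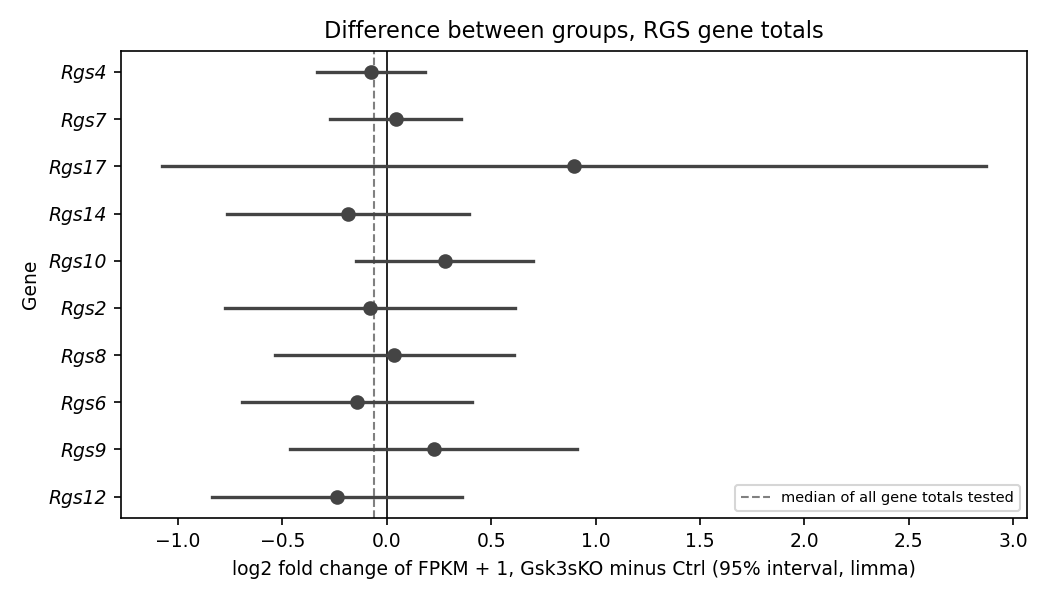
Difference between Gsk3sKO and Ctrl for each RGS gene total on the log2(FPKM + 1) scale, with 95% intervals from limma (n = 3 libraries a group) and the median of all gene totals as a dashed line at -0.06. All 10 intervals include 0, and that of Rgs17, from -1.07 to 2.87, is the widest.

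FPKM is a level per length, so the genes can be ordered by it. Rgs4 was the highest with a mean of 101 FPKM over all libraries, followed by Rgs7 (45.3), Rgs17 (28.5), Rgs14 (27.3), Rgs10 (24.4), Rgs2 (19.7), Rgs8 (15.6), Rgs6 (14.1), Rgs9 (11.5) and Rgs12 (8.12). Rgs4 alone stood clear of its neighbour, since its lowest library (96.9 FPKM) was above the highest of Rgs7 (48.6 FPKM). Every other neighbouring pair had overlapping ranges. Rgs4 made up 29.2% to 41.6% of the summed FPKM of the 10 genes, which was 246 to 358 FPKM per library. Ctrl replicate 3 was the highest library for 7 of the 10 genes and Ctrl replicate 1 the lowest for 5, so these libraries of 1 group stood at opposite ends.

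Rgs4, the most abundant of the R4 genes (chr1:169741477-169747642, minus strand, GRCm38), had gene totals of 102, 103 and 105 FPKM in Ctrl and 98.9, 96.9 and 97.5 FPKM in Gsk3sKO. Each Gsk3sKO library was below each Ctrl library, with means of 103 ± 1.48 and 97.8 ± 1.004 FPKM (SD, n = 3; exact permutation p = 0.1, the smallest that 3 against 3 allows). The log2 fold change was -0.08 (SE 0.11, limma adjusted p = 0.924), with a 95% interval from 0.792-fold to 1.13-fold. The SD of log2(FPKM + 1) within groups was 0.0178, which ranked 1 from the lowest among all 12874 gene totals. limma draws such a small variance towards that of other genes of like level, and the linear model without this step gave an unadjusted p of 0.00591. The separation did not hold after median ratio scaling, when Rgs4 was 104, 96.9 and 99.0 in Ctrl and 96.9, 98.9 and 101 in Gsk3sKO. With this scaling the log2 fold change was -0.01.

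The main transcript Rgs4-201 (ENSMUST00000027991) held 97.1% to 100% of the Rgs4 total. It had 102, 99.8 and 102 FPKM in Ctrl and 97.8, 94.3 and 96.4 FPKM in Gsk3sKO, again without overlap, as did 11.2% of all transcripts tested. Its log2 fold change was -0.07 (limma adjusted p = 0.923), and the linear model without moderation gave an unadjusted p of 0.0163. The retained-intron transcript Rgs4-203 was at 0 to 2.54 FPKM. RGS4 is known as a short-lived protein, since loss of the first methionine exposes a cysteine that marks it for arginylation by Ate1 and breakdown through the ubiquitin ligases Ubr1 and Ubr2. The first 30 coding bases of Rgs4-201 are shown with this codon in capitals (chr1:169747494-169747523, minus strand, GRCm38, from the GENCODE M21 transcript).
Rgs4-201: atgTGCaaaggacttgcaggtctgccggct

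Of the 10 genes, 1 (Rgs4) has a cysteine codon after the start in its most abundant transcript. Of 4 tested RGS genes of the list outside the 10 that were read in the same way, Rgs5 and Rgs16 had one. Ate1 had 19.4, 24.0 and 32.5 FPKM in Ctrl and 22.2, 17.8 and 20.2 FPKM in Gsk3sKO, with overlapping groups (log2 fold change -0.29, limma adjusted p = 0.833). Ubr1 was at 10.4 to 12.4 FPKM and Ubr2 at 10.6 to 12.9 FPKM over the 6 libraries. limma called neither ligase.

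Rgs2, an R4 gene best known for acting on Gq (chr1:143999338-144004161, minus strand), had 12.1, 22.0 and 27.6 FPKM in Ctrl and 23.2, 18.9 and 14.1 FPKM in Gsk3sKO. The Ctrl group alone spanned the whole Gsk3sKO range. Its log2 fold change was -0.08 (SE 0.30, limma adjusted p = 0.970), with a 95% interval from 0.584-fold to 1.53-fold. It turned to 0.16 without Ctrl replicate 3, to 0.10 without Gsk3sKO replicate 3 and to 0.002 without Ctrl replicate 2. One transcript, Rgs2-202 (ENSMUST00000127206), held 90.5% to 99.5% of the total in each library (log2 fold change -0.08, limma adjusted p = 0.979).

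Rgs8, an R4 gene first known from cerebellar Purkinje cells (chr1:153653025-153700323, plus strand), had 12.1, 14.8 and 19.3 FPKM in Ctrl and 18.2, 18.6 and 11.01 FPKM in Gsk3sKO. The highest and the lowest of the Ctrl libraries enclosed 2 of the 3 Gsk3sKO libraries. The log2 fold change was 0.04 (SE 0.25, limma adjusted p = 0.987), with a 95% interval from 0.689-fold to 1.53-fold. It was -0.12, -0.07 and -0.09 without Ctrl replicate 1, Gsk3sKO replicate 1 and Gsk3sKO replicate 2.

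Below this near-level total, Rgs8 was assigned to different transcripts in different libraries. Rgs8-203 (ENSMUST00000111812, 3625 bases) had 0.174, 0.0789 and 11.2 FPKM in Ctrl and 11.7, 11.3 and 0 FPKM in Gsk3sKO. The longer Rgs8-202 (ENSMUST00000111810, 5614 bases) had 8.88, 12.1 and 5.34 FPKM in Ctrl and 5.15, 6.01 and 10.04 FPKM in Gsk3sKO. The 3 libraries with Rgs8-203 above 11 FPKM were the 3 lowest in Rgs8-202, and they came from both groups. Both transcripts have the same coding sequence of 180 codons, so the annotated protein is the same. The log2 fold changes were 1.11 (SE 1.36, limma adjusted p = 0.914) and -0.26 (SE 0.37, limma adjusted p = 0.926).

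Rgs7, the highest of the R7 genes here (chr1:175059087-175492500, minus strand), had gene totals of 46.5, 39.7 and 47.7 FPKM in Ctrl and 48.6, 42.9 and 46.3 FPKM in Gsk3sKO. The groups overlapped almost fully, with means of 44.7 ± 4.32 and 45.9 ± 2.90 FPKM (SD, n = 3). limma gave a log2 fold change of 0.04 (SE 0.14, adjusted p = 0.963; -0.04 without Ctrl replicate 2). Its 95% interval from 0.830-fold to 1.28-fold was, with that of Rgs4, 1 of the 2 that lay within 1.5-fold both ways. The spread of Rgs7 within groups was in the lowest 7.21% of all gene totals.

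The 3 tested transcripts of Rgs7 code for proteins that share 15 coding segments and end differently. Their last coding stretches are shown because they are what tells the forms apart, with the stop codon in capitals (GENCODE M21, GRCm38, minus strand): chr1:175066641-175066694 for Rgs7-206 (470 codons), chr1:175059744-175059794 for Rgs7-203 (469 codons) and chr1:175076023-175076097 for Rgs7-207 (477 codons).
Rgs7-206: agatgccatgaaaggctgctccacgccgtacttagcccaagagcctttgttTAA
Rgs7-203: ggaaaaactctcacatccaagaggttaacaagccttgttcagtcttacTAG
Rgs7-207: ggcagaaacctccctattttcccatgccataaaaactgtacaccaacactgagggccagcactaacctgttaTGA

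Rgs7-206 (ENSMUST00000194555) had 37.1, 17.4 and 14.9 FPKM in Ctrl and 17.1, 42.3 and 41.7 FPKM in Gsk3sKO. It was the larger part of Rgs7 in Ctrl replicate 1 (79.7% of the total) and in Gsk3sKO replicates 2 and 3 (98.7% and 89.9%), and 31.1% to 43.8% in the other 3 libraries. Rgs7-203 (ENSMUST00000192227) had 5.35, 15.9 and 19.7 FPKM in Ctrl and 27.1, 0 and 0 FPKM in Gsk3sKO, so the highest library and both libraries at 0 were in the same group. Rgs7-207 (ENSMUST00000195324) had 1.62, 6.10 and 12.7 FPKM in Ctrl and 3.26, 0.552 and 4.49 FPKM in Gsk3sKO.

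None of the 3 was called. The log2 fold changes were 0.53 (SE 0.47, limma adjusted p = 0.89) for Rgs7-206, -2.10 (SE 1.36, limma adjusted p = 0.880) for Rgs7-203 and -0.94 (SE 0.75, limma adjusted p = 0.89) for Rgs7-207. With 1 library left out, that of Rgs7-203 ran from -1.30 without Gsk3sKO replicate 2 or 3 to -3.71 without Gsk3sKO replicate 1 (unadjusted limma p of 0.00173), and it was called in the last of these fits alone. The fit without Gsk3sKO replicate 1 called 1733 of all 21584 transcripts tested, against 1200 with all 6 libraries. Rgs7-203 was at -4.21 with a pseudocount of 0.1 and was not called. The division of reads between these transcripts is an estimate of the assembler, while the Rgs7 total was steady.

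Rgs6, an R7 gene known for acting on Gi and Go signals to potassium channels (chr12:82588292-83162056, plus strand), had 10.6, 19.1 and 15.1 FPKM in Ctrl and 16.3, 11.8 and 11.6 FPKM in Gsk3sKO. All 3 Gsk3sKO libraries lay between the lowest and the highest Ctrl library. Its log2 fold change was -0.14 (SE 0.24, limma adjusted p = 0.935), with a 95% interval from 0.619-fold to 1.33-fold, and it was 0.04 without Ctrl replicate 2. Rgs6 has 22 listed transcripts, of which 14 were above 0 in some library and 3 were tested.

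Rgs6-216 (ENSMUST00000200911) had 0, 6.91 and 6.89 FPKM in Ctrl and 7.998, 4.63 and 3.72 FPKM in Gsk3sKO, and Rgs6-208 (ENSMUST00000186458), with the same coding sequence of 472 codons, had 4.32, 3.47 and 0.00167 FPKM in Ctrl and 3.57, 5.55 and 5.96 FPKM in Gsk3sKO. Each was at or near 0 in 1 Ctrl library in which the other was present. Rgs6-201 (ENSMUST00000101234, 456 codons) had 0, 4.03 and 5.47 FPKM in Ctrl and 1.12, 0.641 and 1.62 FPKM in Gsk3sKO. Its log2 fold change was -0.61 (SE 0.77, limma adjusted p = 0.915). It became -1.45 (unadjusted limma p of 0.0174) without Ctrl replicate 1, the library at 0, and -0.10 without Ctrl replicate 3. The fit without Ctrl replicate 1 called 1197 of all 21584 transcripts tested, against 1200 with all 6 libraries.

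Rgs9, the R7 gene best known from the striatum and the retina (chr11:109225355-109298129, minus strand), had 6.53, 10.2 and 15.5 FPKM in Ctrl and 13.7, 13.6 and 9.35 FPKM in Gsk3sKO. The Ctrl libraries enclosed all 3 Gsk3sKO libraries. The log2 fold change was 0.22 (SE 0.30, limma adjusted p = 0.915), with a 95% interval from 0.726-fold to 1.88-fold, and it was -0.06 without Ctrl replicate 1. Dopaminoceptive striatal neurons were followed by 6 markers, Drd2 among them. Their sum was 127, 149 and 371 FPKM in Ctrl and 229, 183 and 343 FPKM in Gsk3sKO. Penk alone gave 96.5 to 295 FPKM of it. The sum rose in the same order as Rgs9 over the Ctrl libraries. In Gsk3sKO it was highest in replicate 3, where Rgs9 was lowest. Log2 fold changes were positive for 6 of the 6 markers, with a median of 0.34, and negative for 58.9% of all gene totals tested. Of these markers 6 of 6 were tested, none was at 0 in all libraries and limma called none, and their part in the Rgs9 values was not tested.

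Rgs9 is known in a long form of striatal neurons and a short form of photoreceptors, which part after a shared exon end. The bases that follow this exon end are shown for the short form Rgs9-204 (ENSMUST00000106706, 484 codons, chr11:109235843-109235899) up to its stop codon in capitals, and for the long form Rgs9-201 (ENSMUST00000020920, 675 codons, chr11:109227548-109227604), which reads on (GENCODE M21, GRCm38, minus strand).
Rgs9-204: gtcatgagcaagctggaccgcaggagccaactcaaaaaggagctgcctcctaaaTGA
Rgs9-201: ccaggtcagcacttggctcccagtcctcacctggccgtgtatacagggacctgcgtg

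The long Rgs9-201 had 5.55, 6.82 and 9.99 FPKM in Ctrl and 5.11, 9.32 and 9.16 FPKM in Gsk3sKO, with overlapping groups (log2 fold change 0.06, limma adjusted p = 0.987). The short Rgs9-204 had 0.819, 2.31 and 2.24 FPKM in Ctrl and 0.879, 0.206 and 0 FPKM in Gsk3sKO, and Ctrl replicate 1 lay just below Gsk3sKO replicate 1. Its log2 fold change of -1.04 (SE 0.49, unadjusted limma p of 0.0781, adjusted p = 0.842) had the smallest p of the tested RGS transcripts. Without Ctrl replicate 1 it was -1.32 (unadjusted limma p of 0.0278) and without Gsk3sKO replicate 1 it was -1.29 (unadjusted limma p of 0.0400), while it was -0.84 to -0.97 and not called when any of the other 4 libraries was left out. Over all 21584 transcripts tested, the fits without Ctrl replicate 1 and without Gsk3sKO replicate 1 called 1197 and 1733, against 1200 with all 6 libraries. The long form exceeded the short form in all 6 libraries. Rgs9-202 (ENSMUST00000103062, 449 codons) had 0, 0.817 and 2.87 FPKM in Ctrl and 6.78, 4.08 and 0 FPKM in Gsk3sKO (log2 fold change 0.83, limma adjusted p = 0.904).

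**Figure D3:**
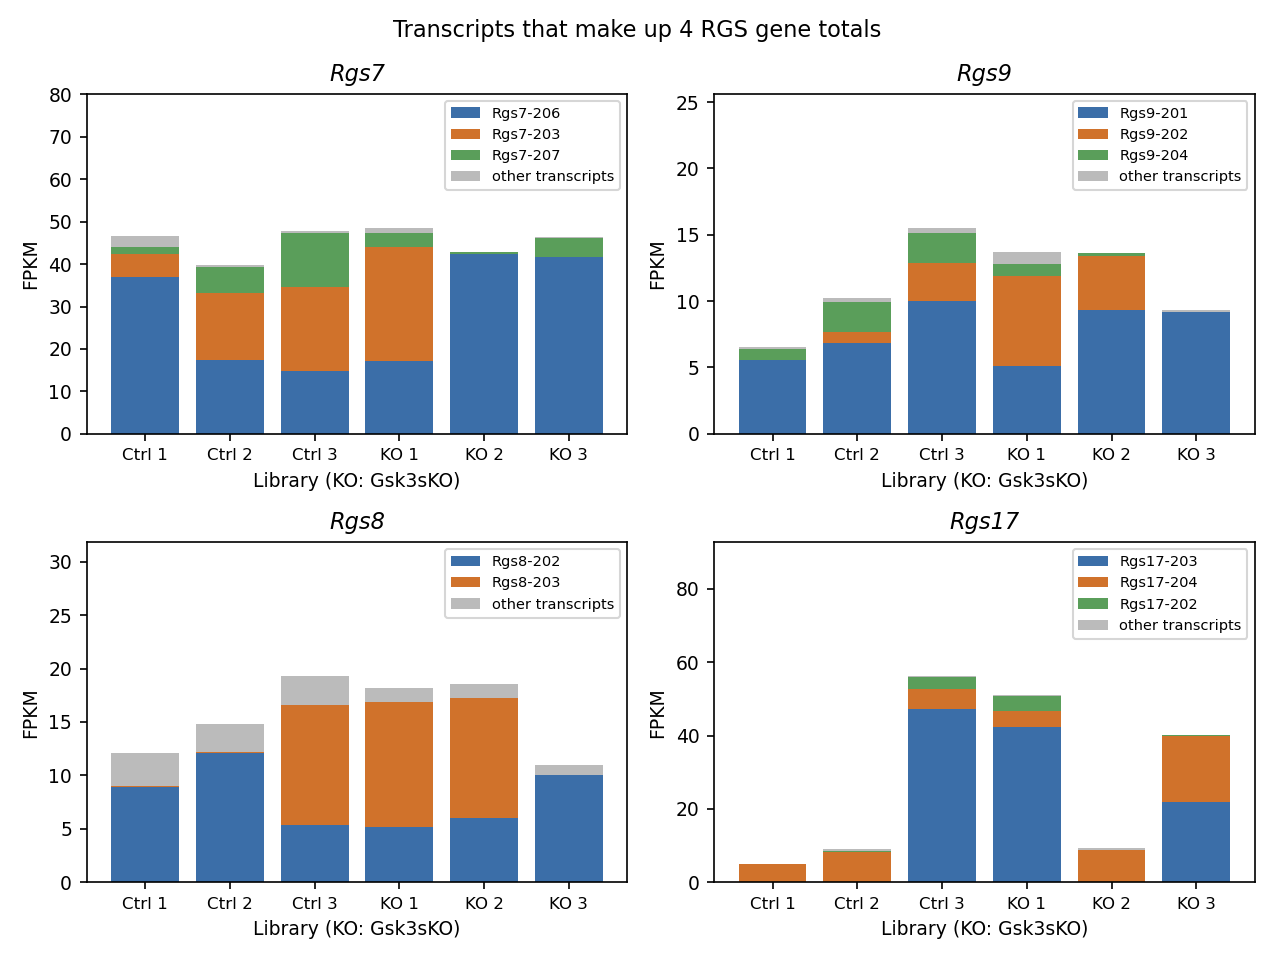
Stacked FPKM of the tested transcripts (colours) and all other transcripts (grey) of Rgs7, Rgs9, Rgs8 and Rgs17 in each library. The Rgs7 total stays between 39.7 and 48.6 FPKM while its transcripts trade places, and the Rgs17 total follows the short Rgs17-203, which is at 0 in 3 libraries.

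Rgs10, a short R12 protein that is little more than an RGS domain (chr7:128373621-128418758, minus strand), had 17.5, 22.8 and 25.8 FPKM in Ctrl and 29.4, 23.0 and 27.6 FPKM in Gsk3sKO. Gsk3sKO replicate 2 lay within the Ctrl range and the other 2 above it, with means of 22.0 ± 4.23 and 26.7 ± 3.28 FPKM (SD, n = 3; exact permutation p = 0.2). limma gave a log2 fold change of 0.28 (SE 0.18, adjusted p = 0.824), with a 95% interval from 0.903-fold to 1.62-fold. It remained positive when any of the 6 libraries was left out, from 0.13 to 0.40, and limma called it in none of these fits.

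Rgs10 is also known as a gene of microglia. Of 6 microglia markers 5 were tested and 2 were called, C1qa and C1qb, both lower in Gsk3sKO, against 6.56% of all gene totals tested. Log2 fold changes were negative for 4 of the 5 and positive for 1, P2ry12 (0.72, limma adjusted p = 0.825). The 6 markers summed to 26.7, 20.3 and 21.3 FPKM in Ctrl and 14.7, 14.9 and 21.6 FPKM in Gsk3sKO. None of these markers was at 0 in all libraries. Rgs10 was highest in Gsk3sKO replicate 1 and the marker sum in Ctrl replicate 1. The part of microglia in the Rgs10 values was not tested. The main transcript Rgs10-201 (ENSMUST00000033133, 181 codons) held 71.1% to 92.3% of the Rgs10 total (log2 fold change 0.18, limma adjusted p = 0.907). Rgs10-206 (ENSMUST00000147840, 85 codons) had 0.927, 3.05 and 6.29 FPKM in Ctrl and 3.84, 5.30 and 7.34 FPKM in Gsk3sKO (log2 fold change 0.72, limma adjusted p = 0.89).

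Rgs14, an R12 protein with a GoLoco motif that binds inactive Gαi (chr13:55369732-55384687, plus strand), had 26.2, 26.6 and 33.3 FPKM in Ctrl and 32.5, 29.1 and 16.3 FPKM in Gsk3sKO. Gsk3sKO replicate 3 was below every other library and the other Gsk3sKO libraries lay in the Ctrl range. Its log2 fold change was -0.19 (SE 0.25, limma adjusted p = 0.916), with a 95% interval from 0.588-fold to 1.31-fold, and it was 0.11 without Gsk3sKO replicate 3.

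The coding transcript Rgs14-201 (ENSMUST00000063771, 547 codons) had 23.3, 26.5 and 29.95 FPKM in Ctrl and 25.9, 17.2 and 16.0 FPKM in Gsk3sKO. Gsk3sKO replicates 2 and 3 were below all Ctrl libraries, and replicate 1 was within them. The log2 fold change was -0.44 (SE 0.23, limma adjusted p = 0.855). With 1 library left out it ran from -0.31 without Gsk3sKO replicate 3 to -0.64 without Gsk3sKO replicate 1 (unadjusted limma p of 0.0161). It was called in the last of these fits alone. That fit called 1733 of all 21584 transcripts tested, against 1200 with all 6 libraries. The retained-intron transcript Rgs14-202 (ENSMUST00000135851) had 2.89, 0.0708 and 3.37 FPKM in Ctrl and 5.41, 7.27 and 0.278 FPKM in Gsk3sKO, and it made up 25.0% of the Rgs14 total in Gsk3sKO replicate 2.

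Rgs12, the largest of the R12 proteins and also a carrier of the GoLoco motif (chr5:34949445-35039644, plus strand), had 7.15, 7.38 and 12.2 FPKM in Ctrl and 6.17, 9.35 and 6.41 FPKM in Gsk3sKO. Gsk3sKO replicates 1 and 3 were below all Ctrl libraries and replicate 2 was between them. limma gave a log2 fold change of -0.24 (SE 0.26, adjusted p = 0.900), with a 95% interval from 0.560-fold to 1.28-fold, and it shrank to -0.01 without Ctrl replicate 3.

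In that library 66.8% of Rgs12 was assigned to Rgs12-204 (ENSMUST00000114281, 723 codons), which had 0, 0 and 8.18 FPKM in Ctrl and 1.95, 0 and 0 FPKM in Gsk3sKO. The full-length Rgs12-201 (ENSMUST00000030984, 1381 codons) had 1.48, 2.67 and 1.47 FPKM in Ctrl and 2.04, 4.18 and 3.41 FPKM in Gsk3sKO (log2 fold change 0.54, limma adjusted p = 0.89). Rgs12-206 (ENSMUST00000114284, 733 codons) had 5.50, 1.07 and 2.59 FPKM in Ctrl and 2.17, 3.97 and 2.43 FPKM in Gsk3sKO (log2 fold change 0.06, limma adjusted p = 0.992). No transcript led in all 6 libraries.

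Rgs17, the RZ gene (chr10:5825663-5922400, minus strand), varied most. It had 4.91, 9.16 and 56.2 FPKM in Ctrl and 51.1, 9.37 and 40.2 FPKM in Gsk3sKO. Ctrl replicate 3 and Gsk3sKO replicates 1 and 3 were above 40 FPKM and the other 3 libraries were below 10 FPKM, so high and low libraries were found in both groups. The means were 23.4 ± 28.5 and 33.5 ± 21.6 FPKM (SD, n = 3), and the log2 fold change was 0.90 (SE 0.86, limma adjusted p = 0.876). The 95% interval, from 0.475-fold to 7.31-fold, includes changes of more than 2-fold in either direction. With 1 library left out the log2 fold change was lowest without Ctrl replicate 1 (0.22, unadjusted limma p of 0.809). It was highest without Ctrl replicate 3 (1.86, unadjusted limma p of 0.0228). That fit called 916 of all 12874 gene totals tested, against 844 with all 6 libraries. Of the Gsk3sKO libraries, omitting replicate 1 gave 0.45 and omitting replicate 2 gave 1.62. The SD within groups exceeded that of 99.5% of all gene totals.

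The Rgs17 spread in FPKM came with the assignment of reads to a short transcript. Rgs17-203 (ENSMUST00000117676, 1651 bases) had 0, 0 and 47.1 FPKM in Ctrl and 42.3, 0 and 22.0 FPKM in Gsk3sKO. The long Rgs17-204 (ENSMUST00000131996, 8107 bases) had 4.90, 8.25 and 5.63 FPKM in Ctrl and 4.33, 8.68 and 17.8 FPKM in Gsk3sKO, and thus was present in all libraries. Both code for the same 210 codons. Rgs17-202 (ENSMUST00000064225, 230 codons) was at 0.0101 to 4.24 FPKM. None of the 3 was called (limma adjusted p-values of 0.923, 0.896 and 0.994).

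A given number of fragments gives a higher FPKM on a shorter transcript. With each transcript weighted by its length, Rgs17 stood at 39.8, 70.6 and 150 fragments per M mapped in Ctrl and 140, 71.2 and 184 in Gsk3sKO. The highest library was then 4.61 times the lowest, and 11.4 times in FPKM. The same 3 libraries were high on both scales.

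**Figure D4:**
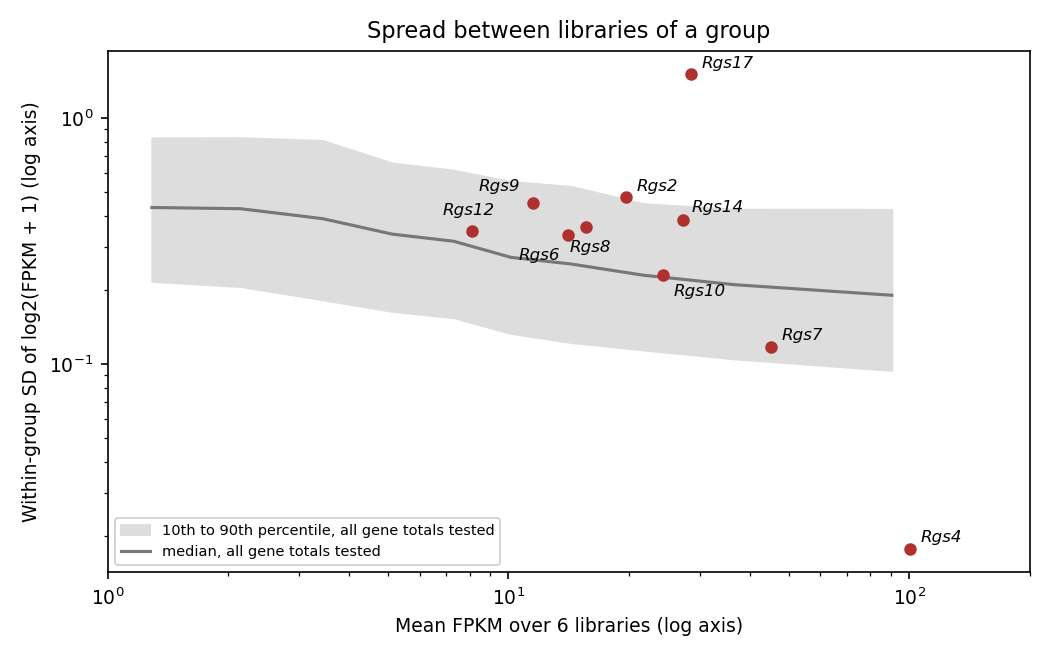
SD of log2(FPKM + 1) within groups against mean FPKM (log axes) for the 10 RGS genes (red points), with the median (line) and the 10th to 90th percentile (grey) of all gene totals tested in 10 classes of level. Rgs4 lies far below the band at an SD of 0.0178 and Rgs17 far above it at 1.5.

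Over the transcripts of the 10 genes, 24 of 82 passed the filter, 42 others were above 0 in at least 1 library with means below 1 FPKM, and 16 were at 0 in all 6 libraries. limma called 0 of the 24 at an unadjusted p under 0.05, against 1200 of 21584 transcripts tested (5.56%). The linear model without moderation called 1 of the 24, Rgs4-201, against 1101 of the 21584. The adjusted p-values ran from 0.842 to 0.994. Log2 fold changes were positive for 14 and negative for 10, with a median of 0.07 beside -0.06 for all transcripts. At least 1 library was at 0 for 9 of the 24. The median SD within groups was 0.782 for these transcripts and 0.354 for the 10 gene totals, beside 0.294 for all gene totals.

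Partners of the RGS proteins were followed through a list of 9 genes, of which 7 were tested. limma called 0 of the 7, with 3 positive and 4 negative log2 fold changes and a median of -0.02. The highest was Ppp1r9b, whose product spinophilin holds RGS proteins at receptors, at 269, 215 and 172 FPKM in Ctrl and 208, 312 and 266 FPKM in Gsk3sKO (log2 fold change 0.26, limma adjusted p = 0.861). The groups did not overlap for 3 of the 7, Gnb5, Rgs7bp and Gpr158, and for 12% of all gene totals tested.

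Gnb5, the β subunit that R7 proteins need for stability, had 48.5, 44.5 and 44.2 FPKM in Ctrl and 40.8, 40.0 and 32.6 FPKM in Gsk3sKO (log2 fold change -0.27, SE 0.14, limma adjusted p = 0.792). Rgs7bp, which anchors R7 proteins at the membrane, had 67.3, 78.0 and 90.8 FPKM in Ctrl and 94.9, 94.9 and 93.9 FPKM in Gsk3sKO (log2 fold change 0.27, SE 0.14, limma adjusted p = 0.792). Gpr158, an orphan receptor that binds Rgs7, had 20.2, 23.9 and 22.8 FPKM in Ctrl and 26.2, 24.5 and 26.4 FPKM in Gsk3sKO (log2 fold change 0.20, SE 0.14, limma adjusted p = 0.835). Every Gsk3sKO library was lower than every Ctrl library for Gnb5 and higher for Rgs7bp and Gpr158, also after median ratio scaling. With that scaling limma called Rgs7bp (log2 fold change 0.34, unadjusted limma p of 0.0316). It called 809 of all 12874 gene totals on that scale, 503 lower and 306 higher. Rgs9bp and Gpr179, the anchors known from the retina, were at most 0.0801 and 0.0537 FPKM.

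**Figure D5:**
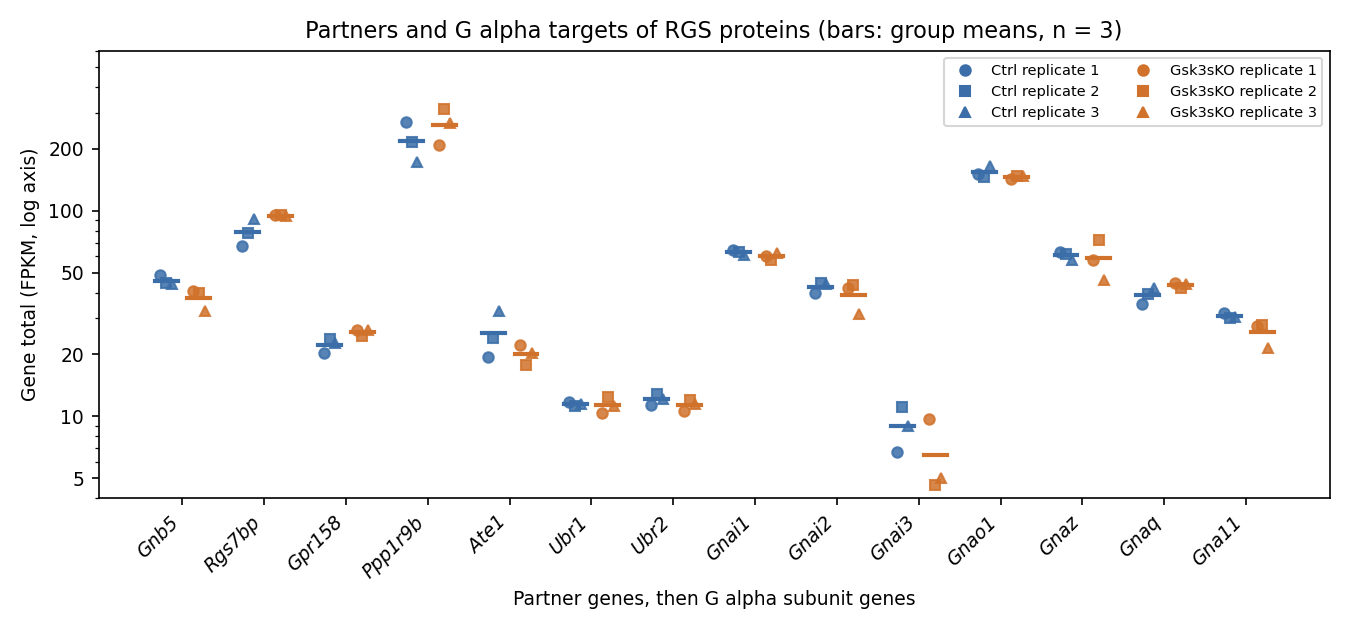
Gene total in FPKM (log axis) of 7 partner genes of RGS proteins and 7 Gα genes in the 3 Ctrl (blue) and 3 Gsk3sKO (orange) libraries, with bars at the group means. The groups do not overlap for Gnb5, Rgs7bp, Gpr158, Gnaq and Gna11, and for 12% of all gene totals tested, and none of the 14 genes was called on the FPKM scale plotted.

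The 7 Gα genes on which these proteins act were all tested and limma called 0 of them. They had 1 positive and 6 negative log2 fold changes and a median of -0.07. Over all gene totals tested, 58.9% of log2 fold changes were negative, with a median of -0.06. Gnao1, which encodes Gαo, was the highest at 151, 145 and 165 FPKM in Ctrl and 142, 148 and 147 FPKM in Gsk3sKO. Its groups overlapped (log2 fold change -0.07, limma adjusted p = 0.932). The groups did not overlap for 2 of the 7, Gna11 and Gnaq, and for 12% of all gene totals tested. For Gna11 the log2 fold change was -0.27 (limma adjusted p = 0.792) and for Gnaq 0.16 (limma adjusted p = 0.861). Gnaz, which encodes the Gz on which Rgs17 acts, was at 46.3 to 72.4 FPKM and was highest in Gsk3sKO replicate 2, where Rgs17 was low.

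Among 32 receptors coupled to Gi or Go, 27 were tested and limma called 1, against 6.56% of all gene totals tested. The call was Sstr1, which was lower in Gsk3sKO, as were 669 of the 844 calls over all gene totals. This somatostatin receptor had 6.91, 7.82 and 10.1 FPKM in Ctrl and 6.94, 2.08 and 2.08 FPKM in Gsk3sKO, so Gsk3sKO replicate 1 lay within the Ctrl range. The log2 fold change was -1.12 (SE 0.38, unadjusted limma p of 0.0185, adjusted p = 0.688). Without Ctrl replicate 3 or Gsk3sKO replicates 2 or 3 the limma p was 0.0644, 0.0672 and 0.0676, with log2 fold changes of -0.98, -0.89 and -0.89, and it was 0.0788 in the linear model without moderation. The median of the tested receptors was -0.04, and the highest was Gabbr1, a GABA-B subunit, at 128 to 182 FPKM. Of 13 effectors of Gi signalling (adenylyl cyclases and potassium and calcium channels), 12 were tested and limma called 0, with a median of 0.04. Their highest gene was Adcy1, a cyclase of cortical neurons, at 48.2 to 58.3 FPKM.

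Of 11 other RGS genes, 5 were tested, Rgs3, Rgs5, Rgs16, Rgs19 and Rgs20, and limma called 0. Their log2 fold changes were positive for 1 and negative for 4, with a median of -0.42, and negative for 58.9% of all gene totals tested. Rgs18 and Rgs21 were at 0 in all libraries. Rgs5, the highest and a gene known from pericytes, had 4.90, 18.9 and 12.02 FPKM in Ctrl and 8.06, 10.8 and 26.1 FPKM in Gsk3sKO. The 4 pericyte markers, of which 2 were tested and none was at 0 in all libraries, summed to 12.7, 17.2 and 8.99 FPKM in Ctrl and 5.80, 7.20 and 13.7 FPKM in Gsk3sKO. Ctrl replicate 2 and Gsk3sKO replicate 3 were the highest of their groups for both. In Ctrl, Rgs5 was lowest in replicate 1 and the marker sum in replicate 3. The part of these cells in the Rgs5 values was not tested.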

How the data were processed

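RNAseq of RiboTag immunoprecipitates was analysed in 6 libraries, 3 Ctrl and 3 Gsk3sKO, grouped from the submitters' titles (columns per library left out: 0). The authors deposited 1 table of FPKM values per transcript and library, made with HISAT2 2.1.0, SAMtools 1.9 and StringTie 1.3.4d on GRCm38 according to the submitters' processing notes. Tool settings, strand handling included, were not given in the sources used here. The table also holds the authors' own fold, p and q values, which were not used. How StringTie divides reads between overlapping transcripts is an estimate: a gain of 1 form can mirror a loss of another.

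FPKM was summed by gene identifier for gene totals. Transcripts were matched to GENCODE M21, in which 114237 of 115220 transcripts and 82 of the 82 transcripts of the RGS genes were found. The groups were compared in R 4.3.3 with limma 3.58.1 (lmFit, then trended eBayes) and no covariate, on log2(FPKM + 1) of every feature whose mean over the libraries reached 1 FPKM. Fold changes on this scale understate changes of low features. Tests were 2-sided, p-values were adjusted by the Benjamini-Hochberg method over all features tested, and a feature was called at an unadjusted p under 0.05. Single gene totals were also compared with an exact permutation test over the 6 libraries, which cannot give a p below 0.1. Python 3.11.15 with scipy 1.17.1, pandas 2.3.3, numpy 2.4.6 and matplotlib 3.10.9 served for tables, sequences and plots.

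In simulated data for these libraries, 83% of gene totals changed by 1 on the log2 scale and 100% of those changed by 2 were called, against 5.33% of unchanged gene totals. For transcripts the shares were 59%, 80% and 5.56%. The simulated scatter was normal on the log2(FPKM + 1) scale with the SD of each feature, and the changed features were picked at random. The shares are averages over such features and do not hold for single RGS genes or transcripts. Of the 24 RGS transcripts tested, 9 had a library at 0, and Rgs17 had an SD within groups of 1.5.

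Read counts were not used, since the table gives FPKM. A search for an even step between low values placed only 21.6% to 41.7% of them within 0.05 of a whole number of steps, so reads were not recovered, the depth of each library is unknown and no count test was run. No 2 libraries were identical, and Pearson's r of log2 gene totals between libraries was 0.908 to 0.965, across genes. Same-numbered libraries of the 2 groups did not deviate together (correlations -0.03, -0.01 and -0.08), so the replicate number was treated as a name. The alternatives tried were a pseudocount of 0.1, no filter, a filter at a mean FPKM of 5, median ratio scaling, a replicate block, a linear model without moderation, and leaving out each library in turn.

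The RGS genes, the 5 pathway lists and the 9 cell type marker lists were chosen with earlier results of these data known. Named are the 10 RGS genes, each of their tested transcripts, Gsk3b, and, in each pathway list, the genes called and the gene with the highest mean FPKM. Further genes of these lists, where named, were chosen after their values were seen.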

Additional observations from a re-analysis of the deposited data

How the results depend on the processing

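limma called none of the RGS gene totals with a pseudocount of 0.1, without a filter, with a filter at a mean FPKM of 5, with median ratio scaling or with the replicate block (0 calls). The linear model without moderation called 1 (Rgs4), and leaving out 1 library gave 0 to 1 calls (Rgs17 without Ctrl replicate 3). Of their transcripts, limma called 0 in the first 5 of these settings, and the linear model called 1 (Rgs4-201). Leaving out 1 library gave 0 to 3. The 3 were called without Gsk3sKO replicate 1, the leave-out fit with the most calls over all transcripts (1733). Calls over the 5 pathway lists were 1 as reported, 2 with median ratio scaling, 2 with the replicate block, 2 in the linear model and 0 to 4 when 1 library was left out. The causes of these differences were not tested. The sign of the log2 fold change was the same under all 12 alternatives for 4 of the 10 gene totals (Rgs4, Rgs10, Rgs12 and Rgs17) and for 16 of the 24 transcripts, of which those below a mean FPKM of 5 had no fit under the stricter filter.

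The replicate block moved the calls over all gene totals from 844 to 821. In the linear model without moderation, 695 gene totals and 1101 transcripts were called. Over all transcripts, calls were 1200 as reported, 1917 without a filter and 590 with a filter at a mean FPKM of 5, settings that test more and fewer transcripts. A library left out leaves a group with 2. Calls in these fits ran from 574 to 1175 over all gene totals and from 894 to 1733 over all transcripts. The depth of the libraries is unknown, and what it limits was not tested.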
